A study of Rattus norvegicus with 18 samples.

Results

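Expression of 10 genes of cholinergic signalling was examined in the prefrontal cortex (PFC) of rat pups exposed to oxycodone (oxy). The genes are the muscarinic receptors Chrm1, Chrm2, Chrm3 and Chrm4, the nicotinic receptor subunits Chrna2, Chrna4, Chrna5, Chrna7 and Chrnb2, and the acetylcholine-degrading enzyme Ache. They were chosen by name, as the 10 rows carrying these symbols among the 32623 genes listed for every pup. The samples were 18 Sprague Dawley pups taken at postnatal day 14 (P14), 6 in each of 3 groups. SAL pups were the saline controls. PNO pups came from dams that received oxy by gavage at 15 mg/kg/day only after giving birth. IUO pups came from dams whose daily oxy dose was raised from 10 to 15 mg/kg before mating and then held through gestation and nursing, so IUO pups met oxy before and after birth. The dam, not the pup, was dosed, and no allele or transgene was involved. The labels give no litter, so p-values measure the spread between these pups, some of which may be siblings.

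Acetylcholine reaches the PFC mainly from neurons of the basal forebrain and acts through both receptor classes. Muscarinic receptors are G protein-coupled: the products of Chrm1 and Chrm3 signal through Gq and phospholipase C, and those of Chrm2 and Chrm4 through Gi/o, which lowers cyclic AMP. Nicotinic receptors are cation channels of 5 subunits that open when acetylcholine binds, and acetylcholinesterase, encoded by Ache, ends the signal in the synaptic cleft. In the cortex these receptors are known for their part in attention, arousal and the maturation of circuits.

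Each library held between 18381819 and 26084780 expected counts (median 22726306), and 15703 genes passed the filter on low counts. All 10 cholinergic genes passed it, and their expected counts were whole numbers in every pup. Cortical excitatory neuron markers were present in all groups, with median summed levels of 1578 CPM (counts scaled to library size) in SAL, 1773 in PNO and 1724 in IUO. Marker genes of striatum, a neighbouring region, were also present, at a median summed CPM of 589 in SAL (range 363 to 2234), 573 in PNO (410 to 1984) and 1102 in IUO (740 to 2649). Myelin markers summed to a median CPM of 6295 in SAL (1721 to 9285), 10300 in PNO (2917 to 14740) and 3001 in IUO (2204 to 5619). No gene of these 3 marker lists was below 0.1 CPM in every pup. Because the tissue was measured in bulk, fewer cells of a type and less RNA per cell cannot be told apart.

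Promoter sequences were available for 9 of the 10 genes (RefSeq, build GRCr8, from 250 bases before to 50 bases after the annotated start). The 5 shown here belong to the genes on which the results below turn. Chrnb2, Chrm2 and Chrna7 moved together between pups, and Chrm4 and Chrna4 moved in opposite directions. They lie at chr2:177487257-177487556 (minus strand), chr4:65982200-65982499 (plus strand), chr1:126249080-126249379 (minus strand), chr3:98348830-98349129 (plus strand) and chr3:188534477-188534776 (minus strand), in that order. Capitals mark every match to a GC box (GGGCGG) or an E-box (CACGTG) on either strand. Each sequence is read 5′ to 3′ on the strand of its gene:
Chrnb2: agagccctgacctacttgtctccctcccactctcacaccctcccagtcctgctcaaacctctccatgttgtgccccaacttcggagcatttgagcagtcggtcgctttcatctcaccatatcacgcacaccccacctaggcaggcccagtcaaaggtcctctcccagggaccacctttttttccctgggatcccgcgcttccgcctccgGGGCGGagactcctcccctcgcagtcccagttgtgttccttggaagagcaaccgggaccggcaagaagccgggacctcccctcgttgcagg
Chrm2: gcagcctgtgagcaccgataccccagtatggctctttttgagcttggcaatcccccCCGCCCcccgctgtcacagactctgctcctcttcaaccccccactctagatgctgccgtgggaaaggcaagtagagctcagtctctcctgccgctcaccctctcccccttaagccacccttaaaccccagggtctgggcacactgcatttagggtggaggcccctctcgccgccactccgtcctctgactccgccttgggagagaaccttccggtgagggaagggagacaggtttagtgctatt
Chrna7: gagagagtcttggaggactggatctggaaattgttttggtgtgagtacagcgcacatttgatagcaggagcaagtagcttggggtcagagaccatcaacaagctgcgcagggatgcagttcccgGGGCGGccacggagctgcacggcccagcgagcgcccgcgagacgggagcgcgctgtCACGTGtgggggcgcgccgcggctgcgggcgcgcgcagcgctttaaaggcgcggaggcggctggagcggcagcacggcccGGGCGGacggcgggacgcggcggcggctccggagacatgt
Chrm4: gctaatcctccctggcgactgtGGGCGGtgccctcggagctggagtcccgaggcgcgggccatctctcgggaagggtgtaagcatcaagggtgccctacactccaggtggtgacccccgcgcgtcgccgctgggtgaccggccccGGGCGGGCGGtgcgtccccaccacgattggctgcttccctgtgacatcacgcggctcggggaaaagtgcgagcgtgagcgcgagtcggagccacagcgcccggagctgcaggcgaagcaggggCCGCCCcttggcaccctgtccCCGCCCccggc
Chrna4: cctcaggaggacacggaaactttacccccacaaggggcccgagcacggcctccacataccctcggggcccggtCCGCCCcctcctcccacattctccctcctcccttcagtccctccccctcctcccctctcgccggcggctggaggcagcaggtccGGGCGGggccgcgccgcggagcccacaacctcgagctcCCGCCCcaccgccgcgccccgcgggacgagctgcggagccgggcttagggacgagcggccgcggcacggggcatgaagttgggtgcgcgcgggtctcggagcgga

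In the first group the promoters of Chrnb2 and Chrm2 were alike in base composition and that of Chrna7 stood apart. That of Chrnb2 had 61% G or C and 14 CpG dinucleotides, that of Chrm2 had 60.3% and 10, and that of Chrna7 had 68.3% and 37. Chrm4 (72% G or C, 32 CpG) and Chrna4 (74.7%, 35 CpG) were alike in composition. Whether promoter sequence bears on how the transcripts moved between pups was not tested. Over all 33469 promoters of the same length the median was 51.7% G or C with 7 CpG. Chrm4 held 5 GC boxes, 2 of them overlapping, against 3 in Chrna4, 2 in Chrna7 and 1 each in Chrm2 and Chrnb2. A GC box was present in 33.1% of all promoters. An E-box occurred in the promoters of Chrna7 and Ache and in 6.42% of all promoters. The cyclic AMP response element TGACGTCA (1.83% of all promoters), the AP-1 site TGAGTCA (4.63%), the EGR site GCGTGGGCG (0.544%) and the TATA box TATAAA (14.2%) were searched on both strands and matched none of the 9. A match is a run of letters and was not tested for binding.

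Levels were compared between genes in TPM, which is scaled for library size and transcript length. Ache and Chrm1 led, at 63.2 ± 16.6 TPM and 61.5 ± 18.1 TPM (mean ± SD, n = 18 pups). Ache was above Chrm1 in 8 of 18 pups, so these neighbours did not differ beyond their spread. Chrna4 followed at 23.6 ± 5.99 TPM, Chrnb2 at 23.4 ± 10.4 TPM, Chrm4 at 20.1 ± 4.65 TPM and Chrm3 at 17.9 ± 4.82 TPM. Chrm1 exceeded Chrna4 in all 18 pups. The order within the middle group was unstable, with Chrna4 above Chrnb2 in 9 pups, Chrnb2 above Chrm4 in 9 and Chrm4 above Chrm3 in 12. Chrm3 exceeded Chrna7 (7.39 ± 3.56 TPM) in all 18 pups. Chrna7 was above Chrna5 (4.57 ± 1.31 TPM) in 17 pups, Chrna5 above Chrm2 (3.07 ± 1.85 TPM) in 16, and Chrm2 above Chrna2 (1.86 ± 0.549 TPM) in 16. The plot of TPM by gene shows 3 tiers in the means of each exposure group, although in single pups the upper and middle tiers can cross.

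**Figure D1:**
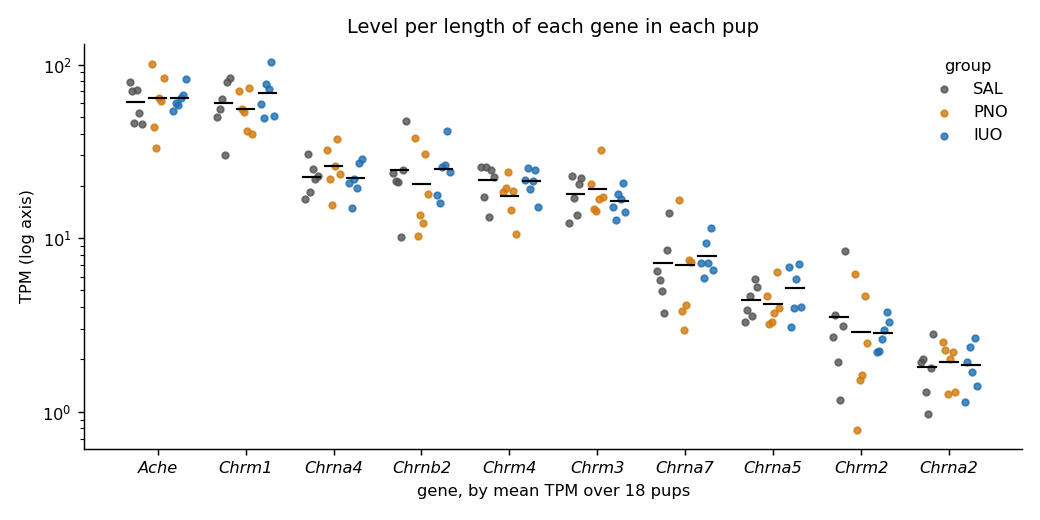
TPM (log axis) of the 10 cholinergic genes in each of 18 pups, ordered by mean level, with SAL, PNO and IUO pups in grey, orange and blue and black bars for group means. Ache and Chrm1 average above 60 TPM, 4 genes lie near 20 TPM and 4 genes average under 8 TPM.

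Chrm1, the main postsynaptic muscarinic receptor of cortical pyramidal neurons, made up 59.3% ± 4.11 of the summed TPM of the 4 muscarinic receptors (SD, n = 18). Chrm4 contributed 20.04% ± 4.41, Chrm3 17.8% ± 3.93 and Chrm2 2.90% ± 1.31. The Chrm1 share was 57.5% ± 3.93 in SAL, 58.2% ± 2.41 in PNO and 62.2% ± 4.57 in IUO (n = 6 each). The Chrm3 share was 17.9% ± 4.14 in SAL, 20.2% ± 4.26 in PNO and 15.1% ± 1.16 in IUO. In IUO the Chrm3 share lay between 13.7% and 17.1% in every pup, inside the SAL range of 13.5% to 23.2%. Receptors coupled to Gq (Chrm1 and Chrm3) exceeded those coupled to Gi/o (Chrm2 and Chrm4) in every pup, by a TPM ratio of 2.17 to 4.54.

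Among the 5 nicotinic subunits Chrna4 held 40.1% ± 8.997 of the summed TPM and Chrnb2 37.3% ± 7.54. These subunits form the common high-affinity nicotinic receptor of the brain. Chrna7, whose product can form a channel on its own and passes calcium readily, held 11.8% ± 2.81. Chrna5, an accessory subunit of receptors containing the Chrna4 and Chrnb2 products, held 7.73% ± 1.84, and Chrna2 held 3.15% ± 0.893. The TPM ratio of Chrna4 to Chrnb2 was 0.485 to 2.48 in SAL (median 0.877), 0.854 to 2.14 in PNO (median 1.26) and 0.657 to 1.199 in IUO (median 0.888). The groups overlapped, and the widest range was among the saline pups.

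Exposure was then compared over all genes with edgeR's quasi-likelihood test in 1 model of the 3 groups, with Benjamini-Hochberg adjustment. None of the 10 cholinergic genes was called in any comparison at an adjusted p under 0.05. The share of all genes called was 0% in PNO vs SAL, 0% in IUO vs SAL and 0.0637% in IUO vs PNO, the last being 10 of 15703 genes. At an unadjusted p under 0.05 the count was also 0 of 10 in each comparison, against 4.5% of all genes in PNO vs SAL, 6.88% in IUO vs SAL and 15.3% in IUO vs PNO. DESeq2 also called 0 of the 10, and called 0.00637% of all genes in PNO vs SAL, 0.312% in IUO vs SAL and 2.78% in IUO vs PNO. The 10 log2 fold changes ran from -0.20 to 0.26 in PNO vs SAL (median 0.02), from -0.23 to 0.23 in IUO vs SAL (median 0.06) and from -0.32 to 0.26 in IUO vs PNO (median 0.05). The medians over all tested genes were 0.0033, -0.0073 and -5e-04. All 30 intervals of 95% included 0, and the outermost bounds were -1.06 and 0.85. In none of the 30 cases did the pups of one group lie wholly above or below the other, which was so for 0.108% of all genes in PNO vs SAL, 0.745% in IUO vs SAL and 1.66% in IUO vs PNO. With the myelin marker score as a covariate 11 of the 30 values changed sign, and none was called. That score differed between groups, with a median of 0.33 in SAL, 0.946 in PNO and -0.865 in IUO. All 7 myelin markers had an unadjusted p under 0.05 in IUO vs PNO by edgeR, against 15.3% of all genes, and none was called. A fit with this covariate therefore cannot separate exposure from myelin marker level. The comparisons share pups, so their values are given side by side only.

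**Figure D2:**
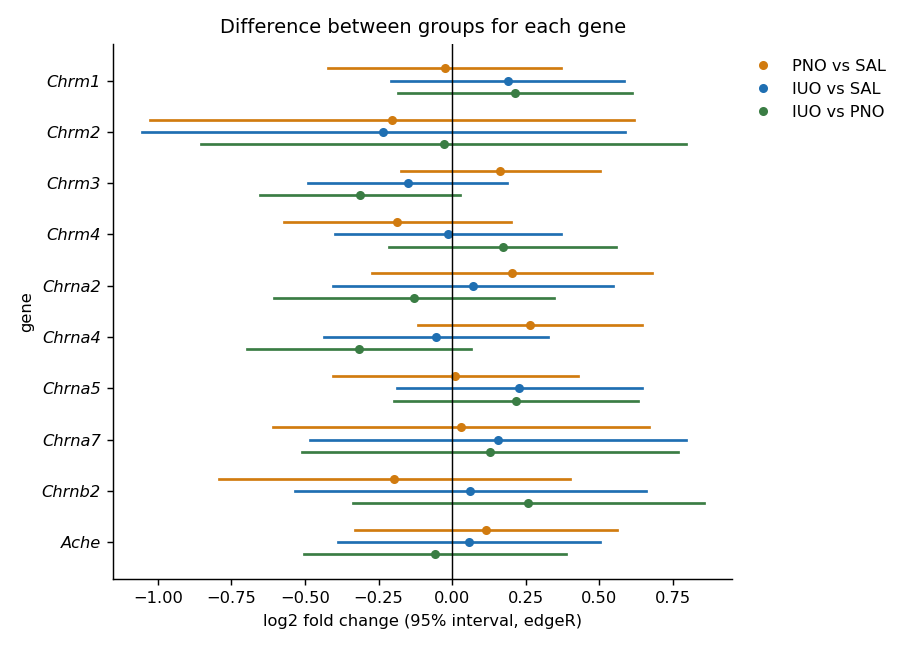
Log2 fold change of each cholinergic gene with its 95% interval from the edgeR model (18 pups, 6 per group) for PNO vs SAL, IUO vs SAL and IUO vs PNO. Every interval crosses 0, and those of Chrm2 are the widest shown.

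Chrm1 ranged over 38.5, 62.4 and 86.3 CPM in SAL (lowest, median and highest pup), 45.2, 65.7 and 73.9 CPM in PNO, and 53.7, 68.9 and 99.6 CPM in IUO. The highest pup was in IUO and the lowest in SAL, and the groups overlapped over most of their range. Its log2 fold change by edgeR was -0.03 (SE 0.19) in PNO vs SAL, 0.19 (SE 0.19) in IUO vs SAL and 0.21 (SE 0.19) in IUO vs PNO, with edgeR adjusted p of 0.984, 0.971 and 0.606. The IUO vs PNO interval reached from -0.18 to 0.61. Without IUO replicate 5 the IUO vs SAL value was 0.06 and the IUO vs PNO value was 0.09.

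Chrm3, the other receptor signalling through Gq, had lowest, median and highest CPM of 25.7, 38.9 and 49.5 in SAL, 35.8, 40.4 and 66.6 in PNO, and 28.8, 34.7 and 41.8 in IUO. A single PNO pup, replicate 5, stood above all other pups, and the other 5 PNO pups lay between 35.8 and 41.7 CPM. By edgeR the log2 fold change was 0.16 (SE 0.16) in PNO vs SAL, -0.15 (SE 0.16) in IUO vs SAL and -0.31 (SE 0.16) in IUO vs PNO, with edgeR adjusted p of 0.912, 0.974 and 0.367. The last had the lowest unadjusted p of all 30, at 0.0676 (edgeR). Without PNO replicate 5 the PNO vs SAL value was 0.01 and the IUO vs PNO value was -0.16. With the myelin marker score as a covariate the latter was -0.56 (SE 0.17, edgeR adjusted p = 0.319), and with the striatal marker score it was -0.15 (SE 0.14, edgeR adjusted p = 0.595). The IUO vs SAL value was -0.01 (SE 0.14, edgeR adjusted p = 0.995) with the striatal score.

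Chrm2 encodes an inhibitory receptor that also serves as an autoreceptor on cholinergic terminals. It was low, with 23 to 229 counts per pup, and its lowest, median and highest CPM were 1.85, 3.83 and 9.44 in SAL, 1.21, 3.004 and 7.37 in PNO, and 2.95, 3.63 and 4.53 in IUO. The IUO pups lay entirely inside the ranges of the other groups and were the least spread, with a coefficient of variation (CV) of 18.1% against 61.8% in SAL and 62.1% in PNO. SAL replicate 6 was at 9.44 CPM and the next SAL pup at 4.72 CPM, and a difference in spread was not tested. The log2 fold change was -0.20 (SE 0.39) in PNO vs SAL, -0.23 (SE 0.39) in IUO vs SAL and -0.03 (SE 0.39) in IUO vs PNO, with edgeR adjusted p of 0.937, 0.995 and 0.978. This was the least precise estimate among the 10 genes, and the IUO vs SAL interval spanned -1.06 to 0.59.

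Chrm4, an inhibitory receptor best known from striatal projection neurons, had lowest, median and highest CPM of 26.7, 36.7 and 42.8 in SAL, 19.1, 28.7 and 46.1 in PNO, and 26.1, 35.8 and 43.98 in IUO. PNO contained both the lowest and the highest pup. Its log2 fold change by edgeR was -0.19 (SE 0.18) in PNO vs SAL, -0.01 (SE 0.18) in IUO vs SAL and 0.17 (SE 0.18) in IUO vs PNO, with edgeR adjusted p of 0.912, 0.999 and 0.671. The PNO vs SAL and IUO vs PNO values of Chrm4 were -0.33 and 0.31 without PNO replicate 3, and -0.08 and 0.06 without PNO replicate 6.

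**Figure D3:**
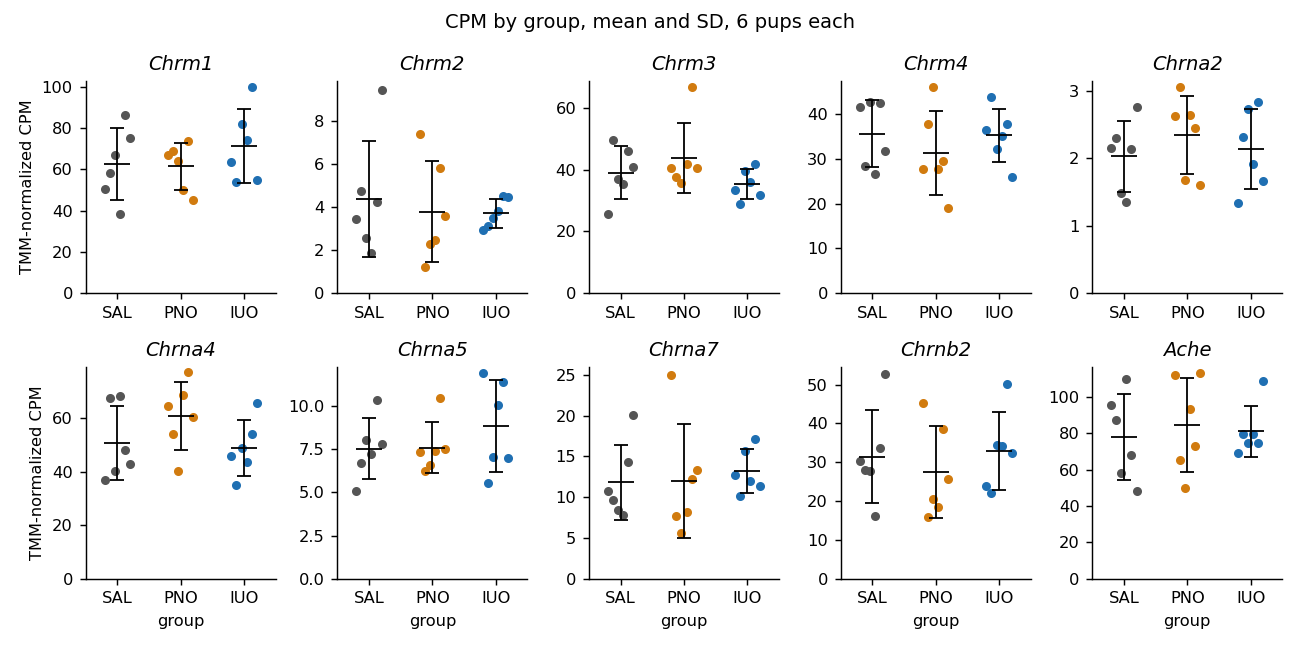
TMM-normalized CPM of the 10 cholinergic genes in each pup (points) with the group mean and SD (bars, n = 6 pups per group). The groups overlap for every gene, and relative to their means Chrm2, Chrna7 and Chrnb2 have the widest spread of the 10 within SAL and PNO (CV of 38.1% or more).

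Chrna4, the ligand-binding partner of Chrnb2, had lowest, median and highest CPM of 37.1, 45.6 and 68.2 in SAL, 40.3, 62.5 and 77.2 in PNO, and 35.0, 47.5 and 65.7 in IUO. Medians were highest in PNO, but 2 SAL pups and 1 IUO pup lay above the PNO median. By edgeR the log2 fold change was 0.26 (SE 0.18) in PNO vs SAL, -0.05 (SE 0.18) in IUO vs SAL and -0.32 (SE 0.18) in IUO vs PNO, with edgeR adjusted p of 0.912, 0.996 and 0.414. The IUO vs PNO interval was -0.70 to 0.06. With the striatal marker score as a covariate the IUO vs PNO value was -0.09 (SE 0.13, edgeR adjusted p = 0.742).

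Chrnb2, the structural partner of most alpha subunits in the brain, had lowest, median and highest CPM of 16.2, 29.2 and 52.8 in SAL, 15.9, 23.2 and 45.3 in PNO, and 21.99, 33.3 and 50.1 in IUO. Each group had 1 pup above 45 CPM, and 3 PNO pups lay below the lowest IUO pup. The log2 fold change was -0.20 (SE 0.28) in PNO vs SAL, 0.06 (SE 0.28) in IUO vs SAL and 0.26 (SE 0.28) in IUO vs PNO, with edgeR adjusted p of 0.920, 0.996 and 0.680. The IUO vs PNO value moved with the processing. It was 0.53 with limma-voom quality weights (adjusted p = 0.087) and -0.22 with the myelin marker score as a covariate (edgeR adjusted p = 0.919). When counts more than 1 SD from their group mean were left out, which kept 3 IUO pups and 5 PNO pups, the log2 ratio of unnormalized means was 0.77, with no test.

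Chrna7 had lowest, median and highest CPM of 7.77, 10.2 and 20.03 in SAL, 5.66, 10.2 and 25.0 in PNO, and 10.2, 12.3 and 17.1 in IUO. SAL and PNO each had 1 pup at 20 CPM or above, and IUO none. Its log2 fold change by edgeR was 0.03 (SE 0.30) in PNO vs SAL, 0.16 (SE 0.30) in IUO vs SAL and 0.13 (SE 0.30) in IUO vs PNO, with edgeR adjusted p of 0.987, 0.996 and 0.859. With 1 pup left out at a time the Chrna7 value ran from -0.33 to 0.24 in PNO vs SAL. In IUO vs PNO it ran from -0.02 to 0.48.

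Chrna5 had lowest, median and highest CPM of 5.06, 7.51 and 10.4 in SAL, 6.22, 7.36 and 10.4 in PNO, and 5.56, 8.54 and 11.9 in IUO. The IUO pups fell into values near 7 CPM or below and values of 10 CPM or above, 3 pups each, and 2 of them lay above the highest SAL pup. By edgeR the log2 fold change was 0.01 (SE 0.20) in PNO vs SAL, 0.23 (SE 0.20) in IUO vs SAL and 0.22 (SE 0.20) in IUO vs PNO, with edgeR adjusted p of 0.992, 0.936 and 0.617. Chrna2, a subunit known from a class of deep-layer interneurons, was the least abundant, at 25 to 72 counts per pup. Its mean CPM was 2.03 ± 0.527 in SAL, 2.34 ± 0.580 in PNO and 2.14 ± 0.598 in IUO (SD, n = 6). Its log2 fold changes were 0.20 (SE 0.23), 0.07 (SE 0.23) and -0.13 (SE 0.23) in PNO vs SAL, IUO vs SAL and IUO vs PNO, with edgeR adjusted p of 0.914, 0.996 and 0.803.

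Ache had lowest, median and highest CPM of 48.2, 77.9 and 109.9 in SAL, 49.9, 82.9 and 113.3 in PNO, and 69.0, 77.1 and 108.8 in IUO. Medians lay close together, and 5 of 6 IUO pups fell between 69.0 and 79.7 CPM. The log2 fold change was 0.12 (SE 0.21) in PNO vs SAL, 0.06 (SE 0.21) in IUO vs SAL and -0.06 (SE 0.21) in IUO vs PNO, with edgeR adjusted p of 0.932, 0.996 and 0.910. The IUO vs SAL interval was -0.39 to 0.50.

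Variation between pups was shared among the genes. Over the 18 pups 45 pairs of the 10 genes were correlated on log2 CPM, and 7 pairs passed an adjusted permutation p of 0.05 on Pearson r (100000 permutations, adjusted over all 115 relations computed here). Of these, Chrm3 and Chrna4 (r = 0.631, adjusted permutation p = 0.019) did not pass on Spearman rho (0.534, adjusted permutation p = 0.1). Chrm1 and Ache passed on rho only (-0.612, adjusted permutation p = 0.041), with r = -0.580 (adjusted permutation p = 0.058). Chrm2 and Chrnb2 were the closest pair, with Pearson r = 0.897 and Spearman rho = 0.889 (permutation p = 1e-05 for both, the smallest that these permutations can give, adjusted p = 0.00038 and 0.00057). Within the groups r was 0.921 in SAL, 0.974 in PNO and 0.833 in IUO. Chrna7 followed Chrnb2 with r = 0.834 and rho = 0.845 (permutation p = 2e-05 and 7e-05, adjusted 0.00046 and 0.0016). The relation of Chrna7 to Chrnb2 had r = 0.854 without the 2 pups farthest from the median, and was 0.901 in SAL, 0.841 in PNO and 0.781 in IUO. The pups numbered SAL 6, PNO 1 and IUO 5 were the highest of their groups for Chrm2, Chrna7 and Chrnb2 alike.

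These genes moved with a property of the whole library. The mean transcript length of a library, computed as the mean deposited effective length weighted by TPM, ran from 1420 to 1786 bases in SAL (median 1578), 1459 to 1712 in PNO (median 1490) and 1517 to 1730 in IUO (median 1588). Chrnb2 followed it with r = 0.954 and rho = 0.945 (permutation p = 1e-05 for both, adjusted 0.00038 and 0.00057), and its r in the separate groups was 0.982 (SAL), 0.970 (PNO) and 0.868 (IUO). Without the 2 pups farthest from the median length r was 0.935. Chrm2 (r = 0.868, rho = 0.857, permutation p = 1e-05 and 2e-05, adjusted 0.00038 and 0.00077) and Chrna7 (r = 0.835, rho = 0.828, permutation p = 2e-05 and 6e-05, adjusted 0.00046 and 0.0016) did the same, with r of 0.853 and 0.794 without those 2 pups. Chrm1 had r = 0.685 and rho = 0.730 (permutation p = 0.0017 and 0.00097, adjusted 0.015 and 0.012), which was 0.614 without those pups.

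The pattern was not particular to the receptors, since 12.3% of 14369 genes had a group-centred r over 0.8 with mean transcript length and 8.35% had one under -0.8. Chrm4 (r = 0.029), Chrna4 (r = -0.043) and Ache (r = -0.244) lay near 0 or below, with permutation p of 0.91, 0.87 and 0.33 and rho of 0.011, -0.053 and -0.198. Chrm3 (r = 0.353), Chrna2 (0.441) and Chrna5 (0.444) lay between, with adjusted permutation p of 0.33, 0.2 and 0.2 and rho of 0.498, 0.367 and 0.554. With mean transcript length as a covariate, the SE of the Chrnb2 log2 fold change in PNO vs SAL went from 0.28 to 0.09. The Chrnb2 values were then -0.01, 0.06 and 0.08 in PNO vs SAL, IUO vs SAL and IUO vs PNO, with edgeR adjusted p of 0.996, 0.846 and 0.722. The SE for Chrm2 in PNO vs SAL became 0.21 and that for Chrna7 0.17. This covariate was chosen after the data were seen.

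**Figure D4:**
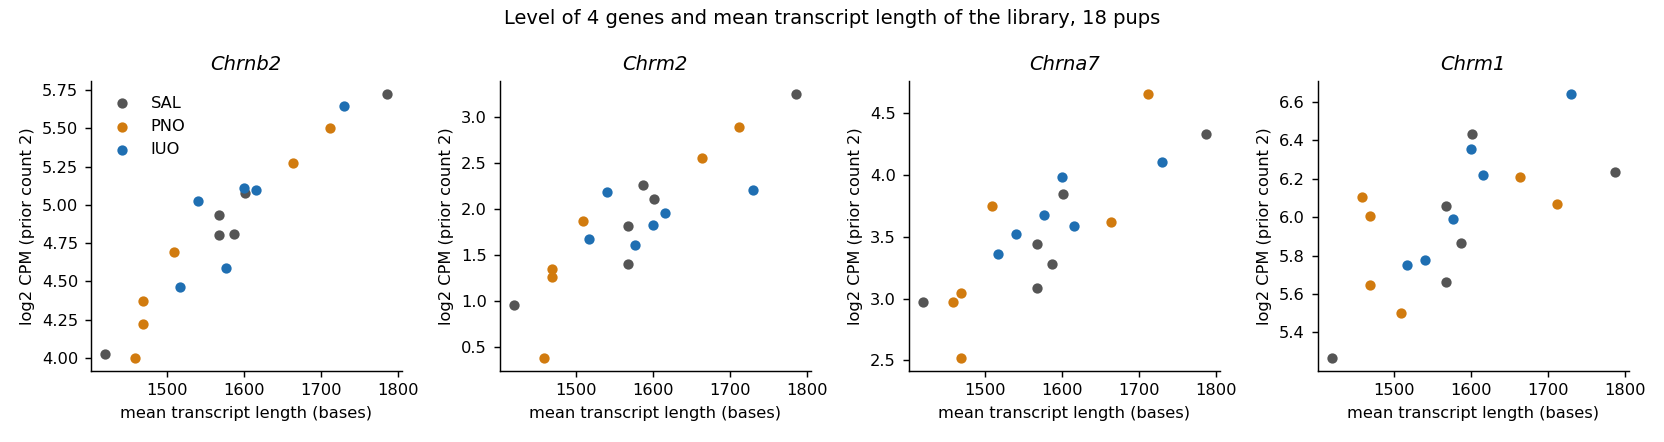
Log2 CPM of Chrnb2, Chrm2, Chrna7 and Chrm1 against the mean transcript length of the library in bases, 1 point per pup, coloured by group. Chrnb2 rises almost on a line in all 3 groups (r = 0.954), and Chrm1 scatters most (r = 0.685).

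A second axis set Chrm4 against Chrna4. Their levels ran in opposite directions with r = -0.757 and rho = -0.785 (permutation p = 0.00019 and 0.00012, adjusted 0.0031 and 0.0023), and with r of -0.822 in SAL, -0.634 in PNO and -0.851 in IUO. Without the 2 pups farthest from the median r was -0.828. Chrm4 and Ache were also opposed, with r = -0.662 and rho = -0.664 (permutation p = 0.0027 and 0.0033, adjusted 0.018 and 0.022). That r was -0.523 without the 2 farthest pups, and -0.360 in SAL, -0.905 in PNO and -0.701 in IUO. Striatal markers moved with Chrm4 and Chrna4, while Ache had r = -0.216 and rho = -0.086 to them (permutation p = 0.39 and 0.74, adjusted 0.58 and 0.86). The score over 11 striatal markers (mean z of log2 CPM, a list without the cholinergic genes) had r = 0.701 and rho = 0.641 with Chrm4 (permutation p = 0.0012 and 0.0051, adjusted 0.012 and 0.031). With Chrna4 the score had r = -0.762 and rho = -0.719 (permutation p = 0.00042 and 0.0011, adjusted 0.0054 and 0.012). Without the 2 pups farthest from the median score these r were 0.631 and -0.662. The sign held within each group, with r of 0.822, 0.670 and 0.725 for Chrm4 and -0.734, -0.784 and -0.841 for Chrna4 in SAL, PNO and IUO.

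Chrm3 lay on the same side as Chrna4, with r = -0.646 and rho = -0.622 to the striatal score (permutation p = 0.0021 and 0.0071, adjusted 0.017 and 0.039), but r was -0.486 without the 2 farthest pups. Against the basal forebrain cholinergic marker score Chrm3 had r = -0.703 and rho = -0.713 (permutation p = 0.00078 and 0.0013, adjusted 0.009 and 0.013). That r was -0.727 without the 2 farthest pups, and -0.869, -0.399 and -0.846 for SAL, PNO and IUO alone. Chrm3 also moved with the upper layer marker score (r = 0.733, rho = 0.752, permutation p = 0.0003 and 0.00048, adjusted 0.0043 and 0.0069), and Chrm4 with the deep layer score (r = 0.665, rho = 0.697, permutation p = 0.0026 and 0.0018, adjusted 0.018 and 0.016). Without the 2 farthest pups these r were 0.718 and 0.631. With the interneuron marker score Chrm4 had r = 0.583 and rho = 0.610 (permutation p = 0.011 and 0.0085, adjusted 0.058 and 0.041). That r was 0.537 without the 2 farthest pups, and 0.774 in SAL, 0.660 in PNO and 0.802 in IUO. Chrna4 had r = -0.478 and rho = -0.531 to that score (permutation p = 0.045 and 0.025, adjusted 0.16 and 0.1). The upper layer score moved as well with 4 other genes at an adjusted permutation p under 0.05. These were Chrnb2 (r = 0.702, rho = 0.697, permutation p = 0.0011 and 0.0017, adjusted 0.012 and 0.016), Chrna5 (r = 0.665, rho = 0.666, permutation p = 0.0029 and 0.0033, adjusted 0.018 and 0.022), Chrm2 (r = 0.663, rho = 0.682, permutation p = 0.0024 and 0.0023, adjusted 0.018 and 0.019) and Chrm1 (r = 0.654, rho = 0.653, permutation p = 0.0034 and 0.0043, adjusted 0.019 and 0.028). Without the 2 farthest pups their r were 0.602, 0.716, 0.487 and 0.662. Against the myelin marker score none of the 10 genes passed on Pearson r. Chrnb2 had r = -0.569 and rho = -0.618 (permutation p = 0.015 and 0.0072, adjusted 0.07 and 0.039), and Chrm1 had r = -0.559 and rho = -0.612 (permutation p = 0.016 and 0.0084, adjusted 0.074 and 0.041). Chrna7 had r = -0.402 and rho = -0.465 (permutation p = 0.099 and 0.053, adjusted 0.26 and 0.15). Without the 2 farthest pups these r were -0.784, -0.652 and -0.774. For Chrnb2 r was -0.860 in SAL, -0.056 in PNO and -0.940 in IUO, and whether the groups differ in r was not tested. Chrm2 had r = -0.411 and rho = -0.461 (permutation p = 0.091 and 0.056, adjusted 0.25 and 0.15). Chrnb2, Chrm2 and Chrm1 moved with both mean transcript length and upper layer markers. With the striatal score as a covariate the Chrm4 log2 fold change was -0.16 (SE 0.13) in PNO vs SAL, -0.18 (SE 0.14) in IUO vs SAL and -0.02 (SE 0.14) in IUO vs PNO, with edgeR adjusted p of 0.868, 0.846 and 0.949. That for Chrna4 was 0.23 (SE 0.12) in PNO vs SAL, with edgeR adjusted p = 0.868. What set the marker levels of a pup was not tested.

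**Figure D5:**
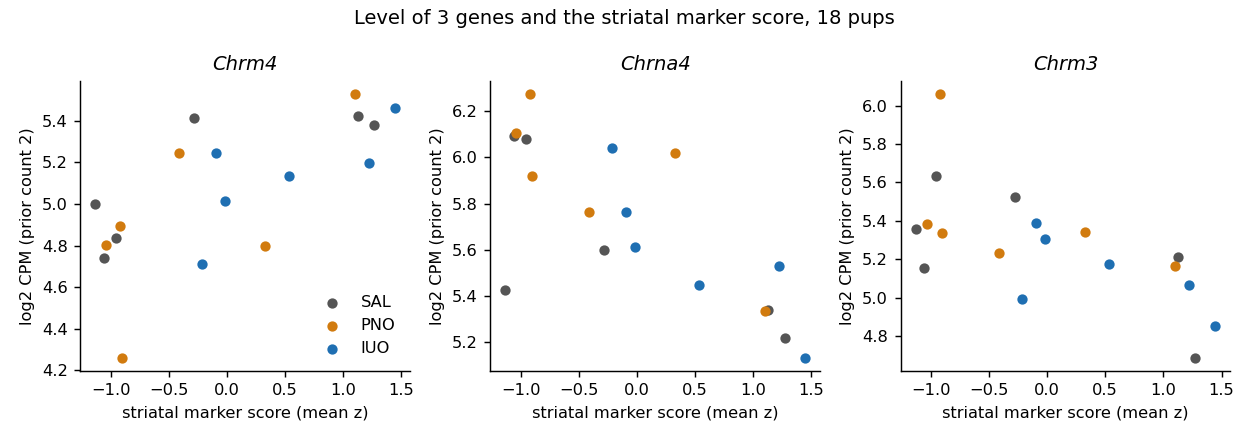
Log2 CPM of Chrm4, Chrna4 and Chrm3 against the striatal marker score (mean z of 11 genes), 1 point per pup, coloured by group. Chrm4 goes up with the score (r = 0.701), and Chrna4 (r = -0.762) and Chrm3 (r = -0.646) go down.

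The genes most like each member were found among 14369 genes with a mean CPM of at least 1, by Pearson r of group-centred log2 CPM over the 18 pups, as a description. Chrnb2 was closest to Dnajc5 (r = 0.992), a synaptic vesicle chaperone, Socs7 (0.992) and Ip6k1 (0.991). Chrm2 was closest to Rmnd5a (0.963), Dnmt3a (0.962), a DNA methyltransferase, and Eps15 (0.960). Chrna7 was closest to Ncam2 (0.946), a neural adhesion molecule, Golga3 (0.944) and LOC102551716 (0.939). Chrm4 was closest to Ngef (0.935), Lamp5 (0.932) and Mast3 (0.931). Chrna4 was closest to Kcnc4 (0.885), a potassium channel subunit, Glb1 (0.878) and Gng2 (0.856). Chrm1 had Slc8a2 (0.957), a sodium-calcium exchanger, Pgbd5 (0.949) and Enc1 (0.946). Chrm3 had Tmem63c (0.916), Zfp238 (0.894) and RGD1306556 (0.893), and Ache had Tmem130 (0.942), Celf6 (0.940) and Magel2 (0.920). Chrna5 was nearest to Cdkl2 (0.926), Ptp4a2 (0.913) and Prkag2 (0.880). Chrna2 had the weakest matches, Otof (0.811), Stc1 (0.807) and Uba1 (0.805).

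The other acetylcholine receptor genes were scarcer. Of 12 listed, 11 were in the files and 7 passed the filter on low counts, and none of the 7 was called in any comparison by edgeR. Chrna3, a subunit known from autonomic ganglia and the habenula, averaged 3.88 ± 1.81 TPM (SD, n = 18), above Chrm2 and Chrna2. The remaining mean levels were 1.30 TPM for Chrne, 0.812 for Chrnb1, 0.536 for Chrm5, 0.438 for Chrnb4, 0.389 for Chrna1 and 0.349 for Chrna6. Chrnb3, Chrna10, Chrna9 and Chrnd, which did not pass the filter, averaged 0.109, 0.065, 0.0139 and 0.00278 TPM. In IUO vs PNO all 7 tested had a log2 fold change below 0 (median -0.68), as had 50.1% of all genes, and 2 of the 7 had an unadjusted p under 0.05, against 15.3% of all genes. Chrna3 had lowest, median and highest CPM of 3.94, 6.43 and 13.01 in SAL, 5.00, 9.39 and 17.1 in PNO, and 4.90, 5.60 and 7.40 in IUO. The groups overlapped, and the Chrna3 log2 fold change in IUO vs PNO was -0.88 (SE 0.30, edgeR adjusted p = 0.185). Chrna6 rested on 0 to 31 counts per pup (-1.85, SE 0.70, edgeR adjusted p = 0.225). In PNO vs SAL, Chrm5 was at 1.43 (SE 0.65, edgeR adjusted p = 0.912), with a PNO median of 0.503 CPM and a highest PNO pup of 4.40 CPM.

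Genes for acetylcholine synthesis, transport and breakdown numbered 10, all tested and none called in the 3 comparisons. Chat, the synthesizing enzyme, ran from 0.330 to 8.01 CPM over the pups, Slc18a3, the vesicular transporter, from 1.195 to 13.6 and Slc5a7, the choline transporter of cholinergic terminals, from 4.01 to 32.6. Bche, the second cholinesterase, had a narrower range of 7.75 to 15.3 CPM. The basal forebrain cholinergic markers, which include the first 3 of these genes, summed to a median of 24.5 CPM in SAL (9.44 to 105.3), 25.5 in PNO (10.9 to 91.4) and 37.1 in IUO (16.9 to 89.8). Slc44a1, a choline transporter-like protein, was the only one of the 10 with an unadjusted p under 0.05, at -0.49 in IUO vs PNO (SE 0.15, edgeR adjusted p = 0.157), against 15.3% of all genes in that comparison.

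Of the chaperones and modulators of nicotinic receptors 8 were tested and none was called in the 3 comparisons. Lynx1, a membrane-anchored protein that damps nicotinic receptors, stood at 0.26 (SE 0.10) in PNO vs SAL and -0.36 (SE 0.10) in IUO vs PNO, with edgeR adjusted p of 0.912 and 0.124. Its relatives Ly6e (-0.33, SE 0.12) and Lypd6b (-0.66, SE 0.30) also had an unadjusted p under 0.05 in IUO vs PNO, with edgeR adjusted p of 0.225 and 0.309. These are 3 of the 8 genes, against 15.3% of all genes in that comparison. Ric3, a chaperone for assembly of the Chrna7 product, was at -0.25 in IUO vs SAL (SE 0.12, edgeR adjusted p = 0.713). Downstream of Chrm1 and Chrm3, none of 9 coupling genes had an unadjusted p under 0.05 in any comparison by edgeR, against 4.5%, 6.88% and 15.3% of all genes in PNO vs SAL, IUO vs SAL and IUO vs PNO. Their median log2 fold changes in that order were -0.18, 0.09 and 0.26, and those of all genes were 0.0033, -0.0073 and -5e-04. Downstream of Chrm2 and Chrm4, 10 genes were tested, none was called, and Gnai2, a Gi alpha subunit, alone had an unadjusted p under 0.05 (0.17 in IUO vs PNO, SE 0.06, edgeR adjusted p = 0.222), against 15.3% of all genes.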

How the data were processed

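Total RNA from PFC of 18 pups was sequenced by the authors from TruSeq V2 libraries. The deposited tables give 1 row per gene with an expected count and a TPM estimated by the authors. The aligner, quantifier and genome build are not given in the sources used here, and the deposited effective length, a model quantity in bases, served to compute mean transcript length. Deposited FPKM values were not used. Expected counts were rounded to whole numbers, filtered (filterByExpr), TMM-normalized and fitted with edgeR 4.0.16 in R 4.3.3 (glmQLFit, glmQLFTest, 3 groups, 15 residual degrees of freedom), and p-values were Benjamini-Hochberg adjusted over 15703 genes. CPM values are TMM-normalized, with a prior count of 2 on the log2 scale. Correlations and their 100000 two-sided permutations were computed with numpy 2.4.6, with ranks from scipy 1.17.1. Among 45 pairs of same-group libraries none was identical, and the lowest chi-square per degree of freedom between counts was 11.2. Library totals were 18381819 to 26084780 counts, the fewest counts in a pup were 23 for Chrm2 and 25 for Chrna2, and the SE of the members' log2 fold changes ran from 0.16 to 0.39.

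The members, the gene lists and the rule for named genes (all 10 members, the other acetylcholine receptor genes, Chat, Slc18a3, Slc5a7 and Bche, and genes of the other cholinergic lists, not of the cell type marker lists, at an unadjusted p under 0.05) were chosen with earlier results of these data known. Alternatives were DESeq2 1.42.0, limma 3.58.1 (voom with quality weights), other normalizations and filters, 12 pups only, a replicate block, 3 covariates, leaving out each pup, and leaving out counts more than 1 SD from the group mean.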

Additional observations from a re-analysis of the deposited data

Results flagged for a closer look

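In 3 of the 30 sets of 6 pups (10 genes in 3 groups) the highest pup stood apart from the next by Dixon's test at its 95% critical value. Chance alone gives about 1 in 20 such sets. Chrm3 in PNO replicate 5 was at 6.06 log2 CPM (66.6 CPM), against 5.38 (41.7 CPM) for the next pup, a gap of 0.756 of the group's range. Chrna5 was also highest in PNO replicate 5, at 3.396 log2 CPM (10.4 CPM) against 2.93 (7.52 CPM), a gap of 0.636. Ache in IUO replicate 6 was at 6.77 log2 CPM (108.8 CPM) against 6.32 (79.7 CPM), a gap of 0.683. The pup PNO replicate 5 therefore stood apart in its group for 2 of the 10 genes. Chrm3 and Chrna5 had r = 0.968 within PNO, so they are not separate observations. This pup had the highest upper layer marker score of PNO (1.10) and the lowest myelin marker score (-0.908). What set it apart was not tested.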

How the results depend on the processing

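No member was called at an adjusted p under 0.05 under any alternative tried, including all 18 fits that left out 1 pup, and the lowest adjusted p was 0.087. The intervals bound what 6 pups per group can show. Counts were lowest for Chrm2 (23 in 1 pup) and Chrna2 (25). In PNO vs SAL the SE was 0.39 for Chrm2 and 0.23 for Chrna2. It was 0.28 for Chrnb2 and 0.30 for Chrna7, which had higher counts than Chrna2, so the SE did not rank by counts. With mean transcript length as a covariate the Chrm2 SE was 0.21. What set the SE was not tested. Of 30 log2 fold changes, 13 kept their direction under all 11 other alternatives with a test, 11 also when counts more than 1 SD from their group mean were left out (a value with no test), and 16 in every fit that left out a pup. None of the values below was called in the main fit or in the alternative, and the cause of each change was not tested. The myelin score differed between the groups, so values with that covariate do not separate exposure from myelin marker level.

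Genes called over the whole table moved more. PNO vs SAL gave 1 with DESeq2. IUO vs SAL gave 49 with DESeq2, 43 with limma-voom, 8 with mean transcript length as a covariate, and 0 (without SAL replicate 1) to 1 (without SAL replicate 2) when a pup was left out. IUO vs PNO gave 19 without TMM factors, 436 with DESeq2, 2028 with limma-voom, 72 with the 12 pups alone, 20 with the striatal and 0 with the myelin score as a covariate, and 151 with mean transcript length. Leaving out a pup gave between 1 (without PNO replicate 4) and 95 (without PNO replicate 5). Members at an unadjusted p under 0.05 in IUO vs PNO numbered 1 with limma-voom (Chrnb2, against 34% of all genes), 1 with the myelin score (9.21%) and 1 with mean transcript length (17.6%), which was Chrm3 in both, and 0 to 2 without a pup. The 2 were Chrm3 and Chrna4 without PNO replicate 3 (13.2% of all genes).

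Values that changed sign with the myelin score were those of Chrm1 (0.17 in PNO vs SAL, -0.12 in IUO vs PNO), Chrm2 (0.19 in PNO vs SAL), Chrm4 (0.00 in IUO vs SAL), Chrna2 (-0.07 in IUO vs SAL), Chrna7 (-0.15 in IUO vs PNO), Chrnb2 (0.12 in PNO vs SAL, -0.10 in IUO vs SAL, -0.22 in IUO vs PNO) and Ache (-0.03 in PNO vs SAL, 0.24 in IUO vs PNO). With the striatal score they were Chrm2 (0.14), Chrm4 (-0.02) and Ache (0.03) in IUO vs PNO, Chrna4 (0.14 in IUO vs SAL) and Chrna5 (-0.00 in PNO vs SAL). With mean transcript length they were Chrm1 (0.09) and Chrm2 (0.03) in PNO vs SAL. With limma-voom they were Chrm2 (0.06 in IUO vs SAL, 0.39 in IUO vs PNO) and Chrna7 (-0.05 in PNO vs SAL). When counts more than 1 SD from their group mean were left out they were Ache (-0.11 in PNO vs SAL, -0.06 in IUO vs SAL, 0.05 in IUO vs PNO), Chrm2 (0.33 in IUO vs SAL, 0.61 in IUO vs PNO), Chrna2 (-0.06 in PNO vs SAL, -0.21 in IUO vs SAL), Chrm4 (0.05) and Chrna4 (0.19) in IUO vs SAL, and Chrna5 (-0.03) and Chrna7 (-0.24) in PNO vs SAL. Without TMM factors they were Chrna5 (-0.02) and Chrna7 (-0.00) in PNO vs SAL.

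The labels do not say whether same-numbered pups of different groups share a litter or batch. Same-numbered pups correlated at a mean of 0.232 in PNO vs SAL (lowest -0.059). The mean was -0.027 in IUO vs SAL (lowest -0.134) and 0.063 in IUO vs PNO (lowest -0.301). At most 2 of 6 pups correlated best with their own number. No mean for differently numbered pups was set beside these values, so whether the numbers pair the pups was not tested. With the replicate block 0, 0 and 6 genes were called, and the values that changed sign were Chrm2 in IUO vs PNO (0.11) and Chrna7 in PNO vs SAL (-0.04).

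Leaving out 1 pup at a time turned 14 values. In PNO vs SAL the ranges were -0.13 to 0.09 for Chrm1, -0.52 to 0.17 for Chrm2, -0.10 to 0.12 for Chrna5, -0.33 to 0.24 for Chrna7 and -0.40 to 0.01 for Chrnb2. In IUO vs SAL they were -0.39 to 0.14 for Chrm2, -0.09 to 0.06 for Chrm4, -0.03 to 0.17 for Chrna2, -0.16 to 0.05 for Chrna4, -0.11 to 0.26 for Chrnb2 and -0.05 to 0.18 for Ache. In IUO vs PNO they were -0.21 to 0.27 for Chrm2, -0.02 to 0.48 for Chrna7 and -0.17 to 0.04 for Ache. The other 16 values kept their sign. In PNO vs SAL their ranges were 0.01 to 0.24 for Chrm3, -0.33 to -0.08 for Chrm4, 0.11 to 0.30 for Chrna2, 0.19 to 0.37 for Chrna4 and 0.00 to 0.24 for Ache. In IUO vs SAL they were 0.06 to 0.30 for Chrm1, -0.25 to -0.07 for Chrm3, 0.13 to 0.34 for Chrna5 and 0.06 to 0.37 for Chrna7. In IUO vs PNO they were 0.09 to 0.28 for Chrm1, -0.37 to -0.16 for Chrm3, 0.06 to 0.31 for Chrm4, -0.24 to -0.03 for Chrna2, -0.42 to -0.24 for Chrna4, 0.11 to 0.32 for Chrna5 and 0.09 to 0.46 for Chrnb2.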
